A study of Mus musculus with 14 samples.

Results

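The nuclear-encoded genes of the mitochondrial respiratory chain were followed in the anterior cingulate cortex, on the inner face of the frontal lobe, in the inbred mouse strains AKR/J (AKR) and C57BL/6NJ (B6N). The members were all protein-coding genes whose symbol begins with Nduf, Uqcr, Atp5 or Cox4 to Cox8, together with Sdha, Sdhb, Sdhc and Sdhd, and this rule took 93 of the 53465 genes in the count tables. By symbol they fell into 38 genes of complex I, 8 Ndufaf assembly factors of complex I, 4 genes of complex II, 8 of complex III, 18 of complex IV and 17 of complex V. Another 13 symbols that fit the rule were not protein coding, and 12 of these were processed pseudogenes, inserted copies of spliced messages. Bulk RNA was sequenced from 4 naive libraries of each strain and from 3 libraries of each strain labelled OFL, for observational fear learning, in which a mouse watches another receive shocks. No allele or agent is named for any group. Age and sex are not given in the sources used here. Nothing says whether each library is a different animal, and the p-values therefore rest on a spread between libraries that may be technical.

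The respiratory chain passes electrons from NADH (complex I) and succinate (complex II) through complex III to oxygen at complex IV, and complex V, the ATP synthase, uses the resulting proton gradient to make ATP. Nuclear genes supply all subunits of complex II and most subunits of the others, while the mitochondrial genome supplies core subunits of complexes I, III, IV and V. Neurons depend on this pathway for the ATP that ion pumping and synaptic transmission consume, and several complex IV subunits have separate isoforms for muscle, testis or lung.

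Total counts ran from 19073921 to 25780227 in the naive libraries and from 13487311 to 14526253 in the OFL libraries. The members together held 0.788% ± 0.0231 (SD, n = 4) of all counts in naive AKR and 0.755% ± 0.0161 (SD, n = 4) in naive B6N. After OFL they held 0.674% ± 0.021 (SD, n = 3) in AKR and 0.664% ± 0.0176 (SD, n = 3) in B6N. Markers of cortical excitatory neurons summed to between 2457 and 6012 CPM (counts scaled to a common library total) in every library, and the choroid plexus markers to at most 5.53 CPM. The naive and OFL libraries lie in separate count tables and also differ in the RNA classes they hold. Small nucleolar RNAs had a median log2 difference, OFL minus naive, of 4.99 in AKR and 5.02 in B6N, and replication-dependent histone genes of 5.47 and 4.77. For 30 tested genes whose exons lie to 80% or more under exons of the opposite strand, the median was 4.66 in AKR and 4.93 in B6N. Condition and library set therefore cannot be told apart, and in bulk tissue fewer cells of a type and less RNA per cell cannot be told apart either.

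Levels were compared between genes as CPM per kilobase of transcript. In naive AKR the highest were Cox8a and Cox6a1, small subunits of complex IV, at 444 and 313 CPM per kb, Cox4i1, its regulatory subunit 4, at 298, and Atp5b and Atp5a1, the catalytic beta and the alpha subunit of the ATP synthase, at 422 and 284. The same 5 genes led in naive B6N, with Cox8a at 408 and Atp5b at 400.3 CPM per kb. The median level per kb in naive B6N was 121 in complex III, 117 in complex V, 93.7 in complex IV, 71.2 in complex II, 50.9 in complex I and 14.9 among the Ndufaf assembly factors. Ndufa4, known as a complex IV subunit despite its name, was the highest gene with a complex I symbol, at 195 CPM per kb in naive AKR and 192 in naive B6N. The 4 complex II genes stood, per kb in naive AKR, in the order Sdha, which binds the flavin and succinate, at 122 ± 3.45 (SD, n = 4), Sdhb, the iron-sulfur subunit, at 89.7 ± 5.27, and the membrane anchors Sdhd at 55.5 ± 2.22 and Sdhc at 20.5 ± 0.832. Neighbours in this order were farther apart than their spread.

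**Figure D1:**
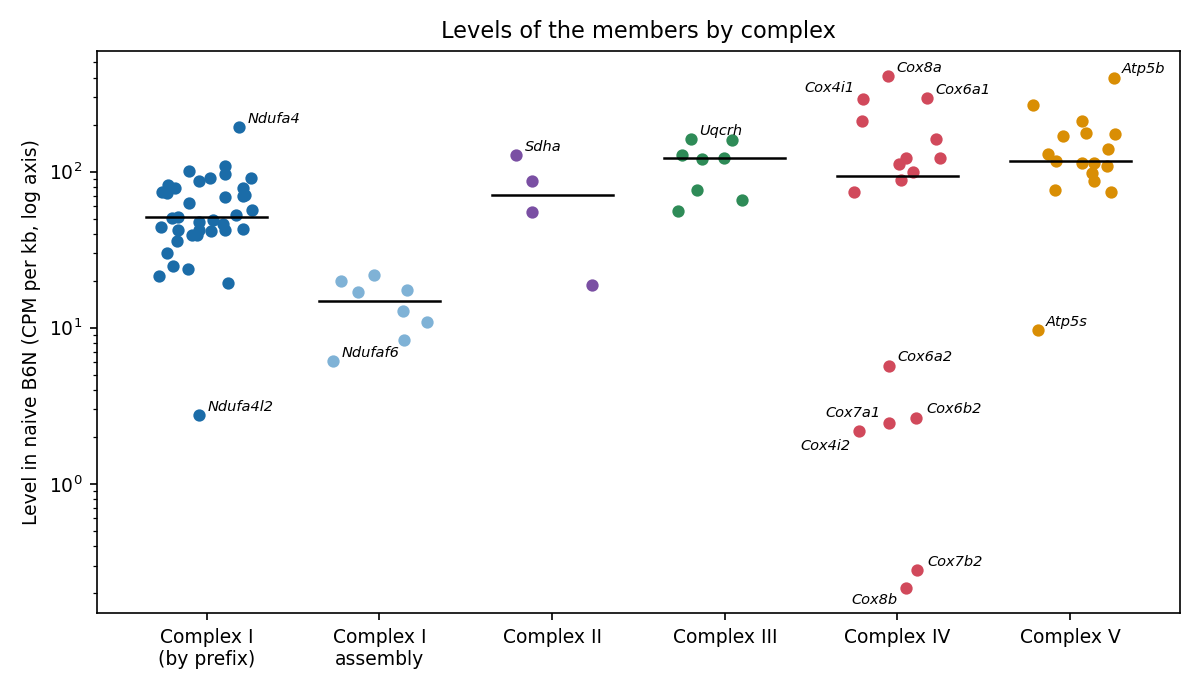
Level of each member in naive B6N (CPM per kb of transcript, mean of 4 libraries, log axis) by complex. Each point is a gene, the bars mark the medians, and Cox8c, listed at 0 counts, is left out. Assembly factors lie lowest as a group, at a median of 14.9, and the complex IV isoforms of other tissues lie far below their partners.

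The tissue isoforms of complex IV were near the floor. Per kb, Cox4i2, the lung and hypoxia form, reached 0.563% of Cox4i1 in naive AKR and 0.741% in naive B6N. The heart and muscle forms Cox6a2, which parvalbumin interneurons also express, and Cox7a1 reached 1.52% of Cox6a1 and 1.54% of Cox7a2 in naive AKR, and 1.94% and 2.19% in naive B6N. The testis form Cox6b2 reached 2.04% and 1.64% of Cox6b1 in naive AKR and B6N, and Ndufa4l2, a hypoxia-induced relative, reached 1.51% and 1.43% of Ndufa4. The muscle form Cox8b had 8 counts summed over the naive AKR libraries and 7 over the naive B6N libraries, and Cox7b2 had 31 and 14. No read was assigned to Cox8c in any of the 14 libraries. Cox8b, Cox7b2 and Cox8c missed the expression filter in every comparison, and Cox6b2 and Cox7a1 missed it in the OFL strain comparison. The 5 parvalbumin neuron markers, Cox6a2 among them, summed to between 304.1 and 389 CPM in the naive and between 206.6 and 298.2 CPM in the OFL libraries. The skeletal muscle markers summed to between 10.2 and 13.3 CPM in the naive libraries and between 6.30 and 8.36 CPM in the OFL libraries.

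The strain comparison in naive mice asks how cortex differs between AKR and B6N before any conditioning. Of 90 members tested, 13 were higher and 7 lower in AKR, that is 22.2% against 37.8% of all 17645 genes tested (edgeR quasi-likelihood test, Benjamini-Hochberg adjusted p under 0.05). The background was 18.3% called higher and 19.5% called lower. No member called differed by 0.5 or more on the log2 scale, against 12.2% of all genes, and the median size of the difference was 0.08 against 0.15. The groups did not overlap for 19 members (21.1%), 10 with AKR above and 9 below, against 34.7% of all genes. The higher members of complex I included core subunits of the arm that takes up electrons and also the accessory subunits Ndufa1 and Ndufa13. The lower members of complex I were accessory subunits of the membrane arm, so accessory subunits were called in both directions. The balance of 13 higher to 7 lower rested on single libraries. It was 8 to 11 without AKR naive replicate 2, 8 to 7 without AKR naive replicate 4, 7 to 8 without B6N naive replicate 1 and 5 to 7 without B6N naive replicate 3. The calls lost there, each a difference of at most 0.16, included Atp5a1, Atp5s, Cox8a, Ndufa1, Ndufa13, Ndufs3, Ndufs7 and Ndufv1.

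Among complex I genes, 6 were higher and 3 lower of 38. The higher ones included the NADH-binding flavoprotein gene Ndufv1 (log2 difference 0.11, adjusted p = 0.027), Ndufs7, which holds the last iron-sulfur cluster (0.16, adjusted p = 0.026), the core subunit gene Ndufs3 (0.11, adjusted p = 0.016) and the accessory subunit genes Ndufa13 (0.14, adjusted p = 0.030) and Ndufa1 (0.15, adjusted p = 0.035), all from edgeR. Ndufs1, the largest core subunit gene, stood at 116 ± 1.61 CPM in AKR and at 109 ± 3.39 in B6N (SD, n = 4 each) and missed the threshold (0.09, edgeR adjusted p = 0.051). Ndufa13 has 29.98% of its exonic bases under Tssk6 on the other strand, so its reads may not all be its own.

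Among called members the lowest in AKR relative to B6N was Ndufc2, a membrane-arm subunit gene (chromosome 7, 97400003 to 97407802, plus strand, GRCm38). Its 4 naive AKR libraries stood at 33.7, 40.8, 33.6 and 37.4 CPM and its 4 naive B6N libraries at 44.9, 47.6, 49.3 and 46.5, so the groups did not overlap. The difference was -0.37 (SE 0.06, edgeR adjusted p = 7.3e-05). After OFL it was at 34.9 to 40.0 CPM in AKR and 41.1 to 44.6 in B6N, again without overlap, and this difference missed the threshold (-0.19, SE 0.07, edgeR adjusted p = 0.063). Ndufb2, another membrane-arm gene, was lower in naive AKR at 13.3 ± 0.358 CPM against 16.4 ± 0.939 (SD, n = 4 each; -0.29, SE 0.06, edgeR adjusted p = 0.0012), and stood at -0.12 after OFL (SE 0.10, edgeR adjusted p = 0.47).

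The assembly factors, which build complex I and are not part of it, had 2 of 8 lower and none higher. Ndufaf1, which works on the membrane arm, was at 12.8 ± 0.525 CPM in naive AKR and 15.9 ± 1.78 in naive B6N (SD, n = 4 each; -0.30, SE 0.08, edgeR adjusted p = 0.0051). Ndufaf7, a methyltransferase, was lower at -0.16 (SE 0.05, edgeR adjusted p = 0.012).

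In complex II only Sdhc was called, higher in naive AKR by 0.13 (SE 0.04, edgeR adjusted p = 0.017), with libraries at 61.2 to 67.3 CPM in AKR and 58.3 to 61.8 in B6N, ranges that overlap. In complex III only Uqcrc1 was called among the 8 genes. This core protein gene (chromosome 9, 108936633 to 108949623, plus strand, GRCm38) stood at 232, 264, 232 and 244 CPM in naive AKR and at 212, 213, 209.6 and 214 in naive B6N. The strains did not overlap, and the difference was 0.20 (SE 0.04, edgeR adjusted p = 0.00072). After OFL the difference was 0.08 (SE 0.05, edgeR adjusted p = 0.29). Uqcrfs1, the Rieske iron-sulfur protein gene, was at 93.7 ± 3.32 CPM in naive AKR and 89.1 ± 2.37 in naive B6N (SD, n = 4 each; 0.07, edgeR adjusted p = 0.12).

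Complex IV had 1 member higher and 2 lower of 15 tested in naive mice. Cox8a was higher by 0.12 (SE 0.04, edgeR adjusted p = 0.023), Cox5b, the zinc-binding subunit gene, was lower at -0.14 (SE 0.04, edgeR adjusted p = 0.010), and Cox7a2l was lower as described below. Cox4i1 (0.02, edgeR adjusted p = 0.67), Cox5a (0.06, edgeR adjusted p = 0.37), Cox6a1 (0.08, edgeR adjusted p = 0.14) and Cox7a2 (0.10, edgeR adjusted p = 0.13) were not called. Among the tissue isoforms Cox4i2 and Cox7a1 both had a difference of -0.40, with an edgeR adjusted p of 0.14 and 0.17. Cox6a2 had -0.27 (edgeR adjusted p = 0.082) and Cox6b2 0.40 (edgeR adjusted p = 0.14).

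Complex V had 4 members higher and none lower of 17 in naive mice. The gene with the largest positive difference among called members was Atp5g2 (chromosome 15, 102662864 to 102672352, minus strand, GRCm38), 1 of 3 genes that encode the same mature c subunit of the proton-driven ring. It stood at 58.0, 62.8, 56.1 and 62.4 CPM in naive AKR and at 49.7, 48.9, 48.2 and 53.1 in naive B6N, with no overlap (0.26, SE 0.05, edgeR adjusted p = 0.00027). Its partners Atp5g1 (-0.08, edgeR adjusted p = 0.18) and Atp5g3 (0.07, edgeR adjusted p = 0.21) were not called. All 31-base stretches of Atp5g2 also occur in the pseudogene Gm10175, which stood at 0.976 CPM in naive AKR. Adding the copies' counts left the difference at 0.26, but a copy at this level could hardly move it. Atp5a1 (0.10, edgeR adjusted p = 0.017), Atp5s, a coupling factor gene (0.16, edgeR adjusted p = 0.035), and Atp5d, the delta subunit gene of the rotor (0.14, edgeR adjusted p = 0.013), were also higher, while Atp5b had 0.08 (edgeR adjusted p = 0.072).

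After OFL, 2 members were higher and 3 lower in AKR of 88 tested, that is 5.68% against 16.4% of all genes tested (7.5% higher and 8.86% lower). The higher ones were Cox6a1 and Atp5d and the lower ones Ndufb10, Ndufaf7 and Cox7a2l. Cox6a1 stood at 98.3, 91.8 and 94.8 CPM in AKR and at 80.7, 83.4 and 84.6 in B6N, with no overlap (0.19, SE 0.05, edgeR adjusted p = 0.016). This call ended without AKR OFL replicate 1 (0.16, edgeR adjusted p = 0.103) or B6N OFL replicate 2 (0.19, edgeR adjusted p = 0.0734). The groups did not overlap for 20 members (22.7%), against 31.2% of all genes. None of the 5 called members differed by 0.5 or more, against 7.26% of all genes.

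Ndufb10, Ndufaf7, Cox7a2l and Atp5d were called in the same direction in the naive and in the OFL libraries, which share no sample. Ndufb10, an accessory subunit of the membrane arm of complex I (ENSMUSG00000040048, chromosome 17, 24722060 to 24724478, minus strand, GRCm38), stood at 58.8, 63.5, 56.6 and 57.4 CPM in naive AKR and at 72.1, 76.0, 71.8 and 73.3 in naive B6N. After OFL it stood at 36.3, 36.8 and 33.0 CPM in AKR and at 45.2, 47.4 and 47.6 in B6N. Every AKR library was below every B6N library of its set. The differences were -0.31 (SE 0.04, edgeR adjusted p = 1.6e-05) and -0.41 (SE 0.07, edgeR adjusted p = 0.00013), folds of 0.807 and 0.753. No other annotated gene holds any of its 31-base stretches and no exon of the other strand overlaps it.

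Ndufaf7 (chromosome 17, 78937136 to 78948052, plus strand) stood at 32.1, 29.4, 32.0 and 30.8 CPM in naive AKR and at 33.0, 35.9, 34.9 and 35.3 in naive B6N. After OFL it stood at 29.7, 27.4 and 30.8 in AKR and at 35.6, 34.0 and 33.8 in B6N, and neither set overlapped. The OFL difference was -0.24 (SE 0.07, edgeR adjusted p = 0.018). It missed the threshold without AKR OFL replicate 2 (-0.20, edgeR adjusted p = 0.0849), without B6N OFL replicate 2 (-0.26, edgeR adjusted p = 0.0544) and with DESeq2 (adjusted p = 0.0605). Atp5d (chromosome 10, 80138632 to 80145818, plus strand) stood at 165, 193, 172 and 180.2 CPM in naive AKR and at 166, 160.1, 158 and 161 in naive B6N, where replicate 1 of AKR lay inside the B6N range. After OFL it stood at 85.0, 89.7 and 86.2 in AKR and at 80.3, 78.9 and 71.1 in B6N, and the difference of 0.17 (SE 0.06, edgeR adjusted p = 0.040) just passed. That call ended with DESeq2 (adjusted p = 0.0832) and when any library but B6N OFL replicate 1 was left out (edgeR adjusted p from 0.0757 without AKR OFL replicate 3 to 0.176 without B6N OFL replicate 3).

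**Figure D2:**
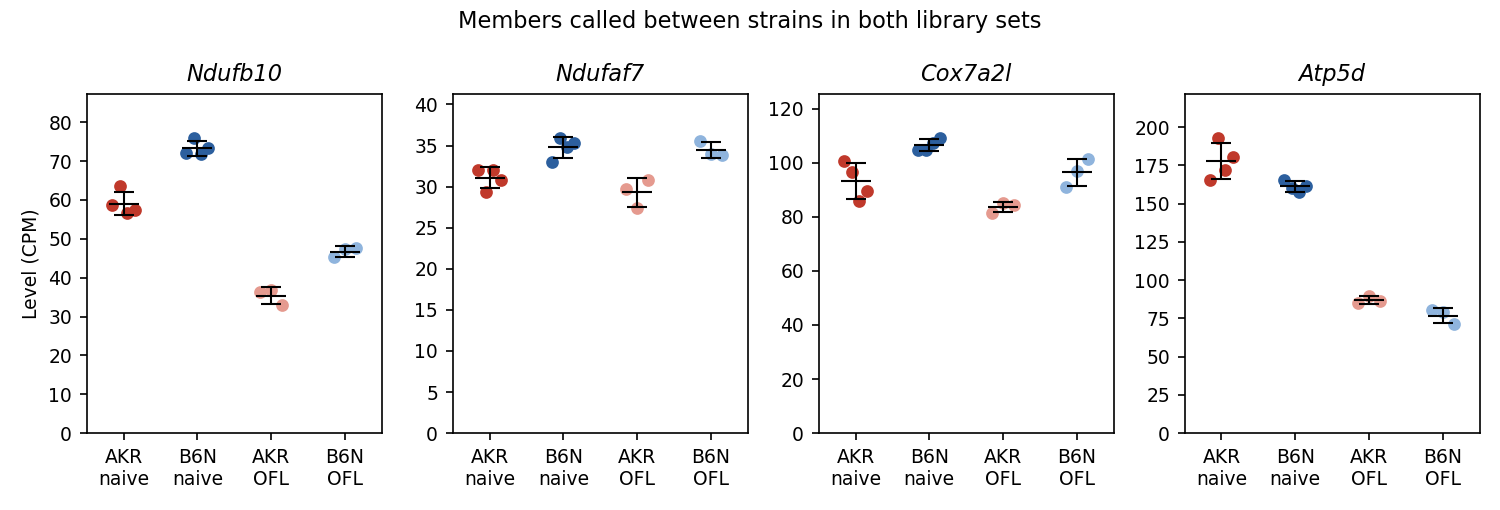
Level (CPM) of the 4 members called between strains in both library sets, with a point for each library and the mean ± SD (4 naive and 3 OFL libraries per strain). Ndufb10, Ndufaf7 and Cox7a2l lie lower in AKR in each set, and Atp5d lies higher.

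Cox7a2l encodes a factor that joins complexes III and IV into supercomplexes, and C57BL/6 mice are known to carry a shortened form of it. The gene (chromosome 17, 83501918 to 83517330, minus strand, GRCm38) has a processed copy, Gm6969, on another chromosome (chr12:24638669-24639010, minus strand), and 23.3% of the 31-base stretches of Cox7a2l also occur in that copy. The copy aligns with bases 56 to 391 of the reference transcript over 342 bases, with 6 bases that the reference transcript lacks and 2 substitutions. The stretch around the extra bases is shown because it is where the reference gene and its copy differ most. Capitals mark the 6 bases absent from bases 239 to 298 of the reference transcript, and 1 of the 2 substitutions also lies in this stretch, in lower case. Both are read 5′ to 3′ on the sense strand:
Cox7a2l: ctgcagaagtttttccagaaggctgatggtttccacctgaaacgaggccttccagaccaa
Gm6969: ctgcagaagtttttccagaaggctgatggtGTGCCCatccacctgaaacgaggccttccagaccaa

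Reads were assigned to Gm6969 almost only in AKR. In AKR its raw counts were 264, 278, 247 and 280 in the naive and 181, 231 and 198 in the OFL libraries. In B6N they were 0, 0, 2 and 0 in the naive libraries and 0 in each OFL library. In AKR its mean level was 12.4 ± 0.570 CPM (SD, n = 4) in naive and 14.6 ± 1.35 CPM (SD, n = 3) in OFL libraries. Cox7a2l itself stood at 101, 96.5, 85.9 and 89.4 CPM in naive AKR against 105, 105, 107 and 109 in naive B6N (-0.19, SE 0.05, edgeR adjusted p = 0.0025). After OFL it stood at 81.4, 85.1 and 84.2 CPM in AKR against 91.1, 96.9 and 101 in B6N (-0.21, SE 0.05, edgeR adjusted p = 0.0091). The OFL call missed the threshold without AKR OFL replicate 1 (-0.20, edgeR adjusted p = 0.0595) or B6N OFL replicate 2 (-0.21, edgeR adjusted p = 0.050). The sum of gene and copy was 105.5 ± 6.73 CPM in naive AKR and 106.5 ± 2.13 in naive B6N (SD, n = 4 each), and 98.2 ± 3.22 in AKR and 96.4 ± 5.07 in B6N after OFL (SD, n = 3 each). With the copy's counts added, an alternative chosen after seeing the data, neither strain difference was called (-0.01, edgeR adjusted p = 0.852, in naive mice and 0.02, edgeR adjusted p = 0.871, after OFL). No other strain call of a member ended with the counts of its copies added. Copies with few counts could hardly move a call, such as Gm10175 of Atp5g2 (0.976 CPM in naive AKR) and Gm12251 of Ndufs3 (0.29). This alternative does not show how reads that fit both gene and copy were assigned. The AKR sequence of Cox7a2l was not read here.

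**Figure D3:**
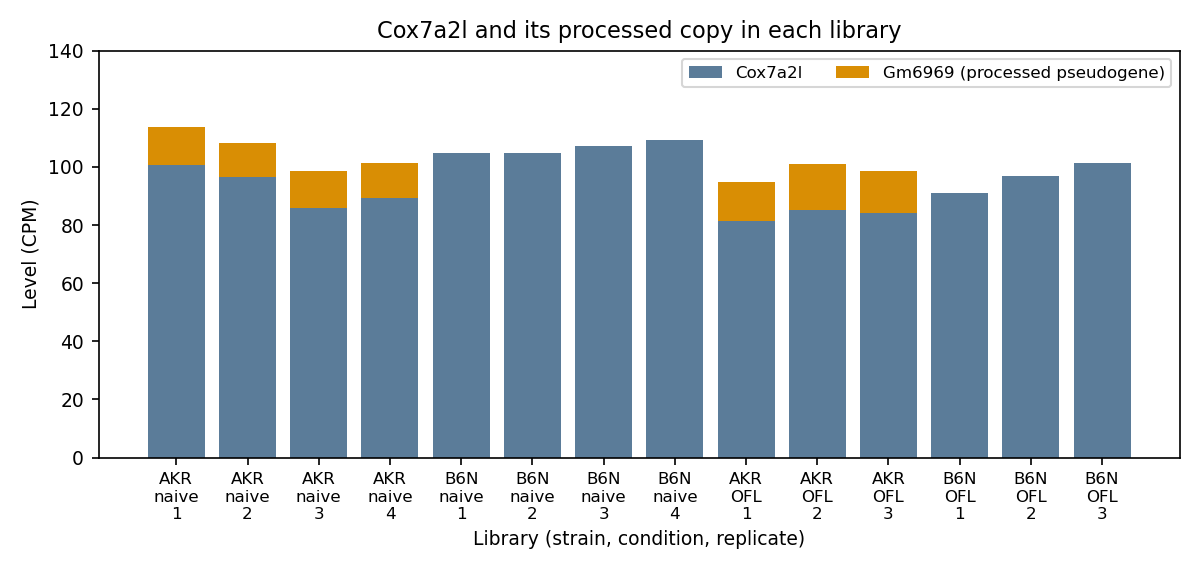
Level (CPM) of Cox7a2l and of its processed copy Gm6969, stacked for each of the 14 libraries. Cox7a2l alone is lower in AKR, while the summed bars, at means of 105.5 and 106.5 CPM in naive AKR and B6N, overlap between strains.

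The strain differences of the 88 members tested in both sets had the same sign for 65. None was called in opposite directions. Across these members the naive and OFL differences correlated with r = 0.70 (Pearson) and rho = 0.67 (Spearman). This is a description over genes, which are not independent replicates and share 1 reference genome. The same counts and correlations were not made over all genes tested, so a pattern particular to the members is not shown. Of the 7 members on chromosome 17, 3 were called lower in both sets and 4 (Ndufv3, Ndufa7, Ndufa11 and Ndufv2) in neither, with differences between -0.05 and 0.12. Among all genes tested, 19.5% were called lower in the naive and 8.86% in the OFL libraries. Cox7a2l, 1 of the 3, was called in neither set with its copy's counts added. This grouping by chromosome was chosen after the values were seen.

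**Figure D4:**
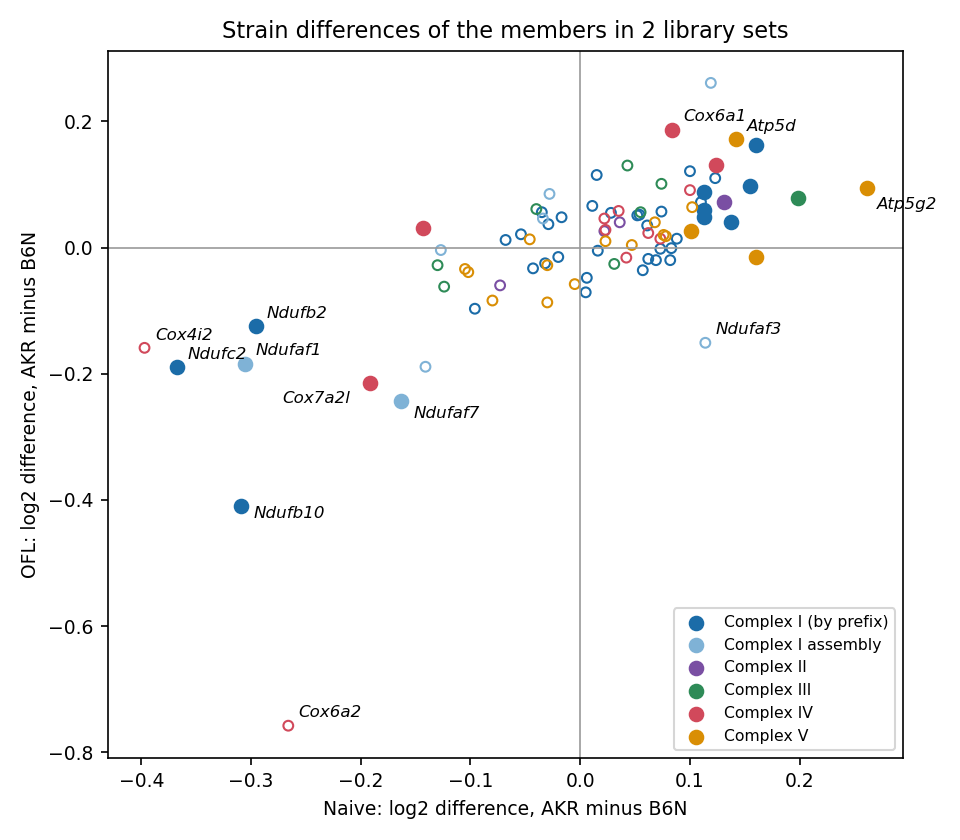
Strain difference (log2, AKR minus B6N) of each member in naive libraries (x axis) and in OFL libraries (y axis), coloured by complex, with filled points called in at least 1 set. Most members lie near 0 on each axis, and Ndufb10 is the called member farthest from 0 after OFL, at -0.41.

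The interaction asks whether the strain difference after OFL departs from that in naive mice. No member of 90 was called with edgeR, against 5.15% of all 20291 genes tested, and DESeq2 also called none. At an unadjusted p under 0.05 there were 2 members, Ndufaf3 and Cox5b. Ndufaf3, an assembly factor gene of the membrane arm, had a strain difference of 0.11 in naive mice and -0.15 after OFL, an interaction of -0.25 (SE 0.10, edgeR adjusted p = 0.15). Without AKR naive replicate 1, which stood lowest of its group at 24.9 CPM against 28.6 to 29.6, it passed (-0.31, edgeR adjusted p = 0.0432). Cox5b had -0.14 in naive mice and 0.03 after OFL, an interaction of 0.18 (SE 0.07, edgeR adjusted p = 0.11).

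The comparison of OFL with naive libraries asks what differs after the conditioning, but it is also a comparison of the library sets. In AKR 14 members were higher and 52 lower of 90, that is 73.3% against 78.7% of all genes tested (39.8% higher and 38.8% lower). In B6N 14 were higher and 54 lower, 75.6% against 78.4% (40.0% higher and 38.4% lower). Of the higher members 12 and of the lower members 50 were the same in both strains, and none was called in opposite directions. The strains share no library here, but they share the fit and the library sets. Calls common to both strains were not counted over all genes tested, so this overlap is not shown to be particular to the members. The median member difference was -0.20 in AKR and -0.19 in B6N, against -0.15 for nuclear protein-coding genes in each strain, of which 46.3% and 46.0% were called lower. When only nuclear protein-coding genes were fitted, all values shifted up by 0.117 in AKR and 0.115 in B6N. The split of calls then became 24 higher and 40 lower in AKR and 20 higher and 43 lower in B6N, with medians of -0.08 and -0.07. Of the members called before, 54 of 66 in AKR and 57 of 68 in B6N kept their call and direction in that fit, and 3 in B6N (Atp5a1, Atp5b and Cox6c) changed sign.

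All 4 genes of complex II were lower in both strains, with differences of -0.33 and -0.35 for Sdha, -0.33 and -0.34 for Sdhb, -0.52 and -0.47 for Sdhc, and -0.40 and -0.41 for Sdhd (AKR and B6N, edgeR adjusted p at most 6.0e-07). In complex III 1 gene was higher and 4 lower of 8 in AKR, and 2 and 5 in B6N, and the largest differences ran in opposite directions. Uqcrq, a small subunit gene, stood between 61.1 and 76.0 CPM in naive AKR and between 22.9 and 24.5 CPM after OFL (-1.51, SE 0.07). In B6N it stood between 63.3 and 65.5 and between 21.3 and 23.5 CPM (-1.52, SE 0.07), with no overlap of the sets in either strain. Uqcrb, another small subunit gene, was higher by 0.77 and 0.70. Other annotated genes hold 58.2% of the sequence stretches of Uqcrb and none of those of Uqcrq. Uqcrc1 (-0.58 and -0.47) and Uqcrfs1 (-0.42 and -0.46) were lower.

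In complex V 2 genes were higher and 12 lower of 17 in each strain. Of the c subunit genes Atp5g3 differed most (-1.25 in AKR, -1.24 in B6N, log2), followed by Atp5g2 (-1.11 and -0.95). Atp5g1 (-0.19 and -0.20) was called lower too, but not with nuclear protein-coding genes only (-0.08 and -0.08). Per kb, Atp5g1 stood at 72.7% of Atp5g3 in naive AKR and 80.6% in naive B6N, and at 152% and 165% after OFL, so the order of these genes turned between the sets. Atp5l, the g subunit gene of the membrane part, had the largest positive difference of all members. It stood at 36.3 to 42.02 CPM in naive AKR and 65.7 to 70.6 after OFL (0.81, SE 0.06), and at 39.0 to 43.4 and 67.4 to 71.9 in B6N (0.74, SE 0.06). Other annotated genes hold 85.4% of the sequence stretches of Atp5l. They also hold 100% of those of Atp5g2 and 67.3% of those of Atp5g1, which were both called lower, and none of those of Atp5g3. How reads that fit several genes were assigned in each library set was not tested. Atp5a1 (-0.16 and -0.09) and Atp5b (-0.13 and -0.08) were called lower, but their direction depended on the genes fitted. With nuclear protein-coding genes only, Atp5a1 stood at -0.04 in AKR and 0.02 in B6N and Atp5b at -0.01 and 0.03, none of them called.

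In complex I, 6 genes were higher in each strain, and 23 were lower in AKR and 22 in B6N. Ndufb5 (0.70 and 0.71), Ndufb6 (0.57 and 0.65), Ndufab1, the mitochondrial acyl carrier protein gene (0.60 and 0.51), and Ndufs1 (0.40 and 0.46) were higher, while Ndufv1 (-0.25 and -0.21), Ndufa4 (-0.17 and -0.21) and Ndufa4l2 (-1.46 and -1.45) were lower. In AKR Ndufa4 was not called with nuclear protein-coding genes only (-0.06). Ndufb6 has 39.0% of its exonic bases under Smim27 on the other strand. The higher genes Ndufb5, Ndufb6, Ndufab1 and Ndufs1 share 17.7%, 36.1%, 38.2% and 7.54% of their sequence stretches with other genes. The lower genes Ndufa4 and Ndufa4l2 share 3.45% and 0.221%. Other complex I genes called lower in both strains share more, such as Ndufs3 (55.0%), Ndufs5 (47.3%), Ndufb11 (29.0%) and Ndufa11 (28.2%). Large shares therefore occurred among higher and among lower genes. Ndufv1, which was lower, and Ndufaf1, which was higher, share none. Of the 8 assembly factors, 4 were higher and 2 lower in AKR and 3 and 2 in B6N, with Ndufaf1 at 0.57 and 0.44 in AKR and B6N. Complex IV had 1 higher and 7 lower of 15 in AKR and 1 and 9 in B6N. Cox4i1 (-0.03 and -0.04) and Cox7a2 (-0.07 and -0.07) were not called, Cox5a stood near the threshold (0.12 and 0.14, edgeR adjusted p = 0.062 and 0.020), and Cox6a1 (-0.92 and -1.03) and Cox8a (-0.60 and -0.62) were lower. The rare isoforms Cox6b2 (-2.73 and -2.88), Cox6a2 (-1.78 and -1.30) and Cox4i2 (-0.90 and -1.15) were lower in both strains. The AKR call of Cox4i2 was lost without AKR OFL replicate 1 (-0.77, edgeR adjusted p = 0.0973) or 3 (-0.56, edgeR adjusted p = 0.187). In the OFL libraries Cox6b2 had between 1 and 5 raw counts.

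The differences ordered by the base composition of the transcripts. Across the 90 members the OFL minus naive difference had a Pearson r of -0.51 with GC content in each strain and a Spearman rho of -0.56. Across 14916 nuclear protein-coding genes rho was -0.57 in AKR and -0.58 in B6N, so this ordering is shared by genes outside the chain. These are descriptions over genes of the same libraries. Among the 30 members of lowest GC content (39.0% to 49.0%), 10 were higher and 7 lower in AKR (median -0.01), and among the 30 of highest GC content (54.7% to 61.1%), 1 was higher and 24 were lower (median -0.60). In B6N the counts were 11 and 9 in the 30 of lowest GC content and 1 and 24 in the 30 of highest. The part of base composition in the difference of any 1 member was not tested. The members' strain differences had a rho of 0.32 with GC content in naive mice and 0.30 after OFL (Pearson r 0.20 and 0.17). Across nuclear protein-coding genes rho was 0.17 and 0.24.

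**Figure D5:**
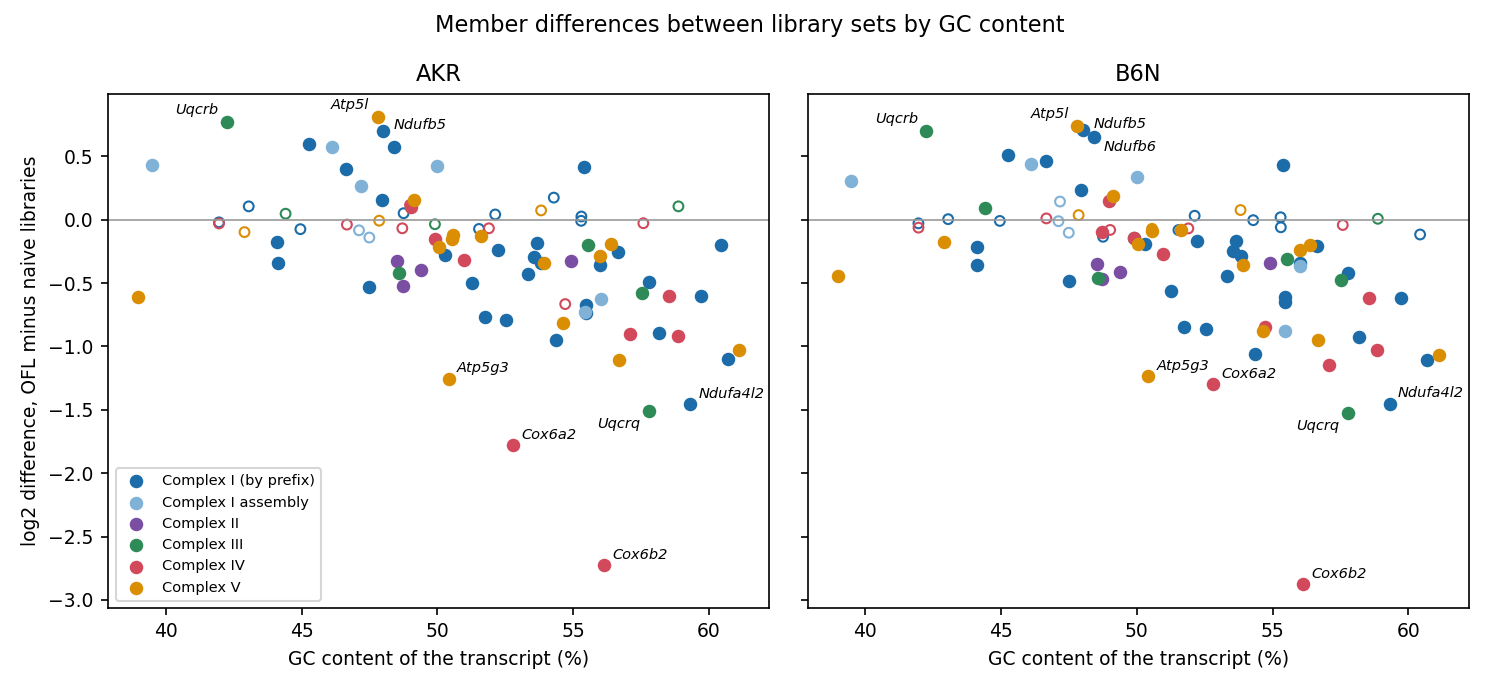
Difference between OFL and naive libraries (log2) of each member against the GC content of its transcript (%), in AKR (left) and B6N (right), coloured by complex, with filled points called. Members of higher GC content lie lower, with a median of -0.60 in AKR among the 30 highest, and both strains show nearly the same pattern.

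Lists of related genes were described beside the members, against the shares of all genes called (37.8% between strains in naive libraries, 16.4% in OFL libraries, and 78.7% and 78.4% between the sets in AKR and B6N). Of 16 genes of the TCA cycle, which feeds electrons to the chain, 6 were higher (37.5%) and none lower in naive AKR. Of all genes tested there, 18.3% were called higher and 19.5% lower. The naive difference was positive for 15 of the 16 (median 0.08), and none was called after OFL. Of 13 electron carrier and coenzyme Q genes 3 were higher and 1 lower in naive AKR, and 2 and 1 after OFL. Coq2, which attaches the side chain of coenzyme Q, was lower at -0.68 and -0.78, and Coq5, a methyltransferase of the same pathway, was higher by 0.26 and 0.22. Of 14 regulators of mitochondrial biogenesis 4 were higher and 5 lower in naive AKR, with Esrrb at 0.59 and Nrf1 at -0.37, and 2 higher and 1 lower after OFL, with Esrra at 0.27 and Tfb1m at -0.67. Gabpa, which encodes a subunit of nuclear respiratory factor 2, was called in the interaction (0.36, edgeR adjusted p = 0.016), and 6.98% of its exonic bases lie under Atp5j on the other strand.

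Of the mitochondrial genome's coding genes, 2 were higher and 2 lower of 12 tested in naive AKR (mt-Nd1 0.23, mt-Nd6 -0.18), and 4 were lower and none higher of 11 after OFL (mt-Nd5 -0.34). Glycolysis had 1 higher and 4 lower of 16 in naive AKR and 3 lower after OFL. Eno2 stood at 0.12 in naive mice, and Eno1, whose reads can be shared with close copies, at -0.62 and -0.66. Further subunit and assembly genes outside the rule were called as follows in naive mice: 1 higher of 10 for complex I (Acad9 0.15), 1 lower of 4 for complex II (Sdhaf2 -0.17), 2 higher of 7 for complex III (the assembly gene Uqcc3, 0.34, and the cytochrome c1 gene Cyc1, 0.15), 2 higher and 1 lower of 19 for complex IV (Higd2a 0.22, Higd1a -0.10), and none of 6 for complex V. After OFL only Higd2a (0.25) and Higd1a (-0.18) of these were called.

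In the OFL minus naive comparison, TCA cycle genes were mostly lower (13 of 16 in AKR and 12 in B6N, Mdh2 -1.14 and -1.19), with Pdha1 higher (0.54 and 0.66). Glycolysis genes were lower for 15 of 16 in each strain, with none higher (Eno1 -1.07 and -1.04). Mitochondrial coding genes were lower for 10 of 12 in each strain, with medians of -2.76 and -2.57, and mt-Nd3 was higher (0.74 and 0.80). However, mt-Nd3 stood at only 2.51 CPM in naive AKR and 2.94 in naive B6N, against 1935 and 1648 for mt-Nd1. The genes mt-Co2, mt-Co3 and mt-Atp6 were also near the floor, with group means of at most 3.97 CPM. The counts and medians include these genes. Mt-Nd6, the coding gene of the other mitochondrial strand, had -6.27 and -5.84. The complex III list had 5 of 7 lower in each strain, led by Cyc1 (-1.18 and -1.20), with Ttc19 higher (0.57 and 0.57). The complex IV assembly list had 7 higher and 10 lower of 21 in AKR and 6 and 11 in B6N, with Cox14 at -1.19 and -1.22. Cox20 had 4.46 and 4.79, and 91.0% of its exonic bases lie under Hnrnpu on the other strand. Sdhaf1 (1.82 and 1.87) has 69.6% of its exonic bases under another gene, and Atpif1, the ATP synthase inhibitor gene (1.52 and 1.41), has 33.7%. Acad9 was higher (1.06 and 1.10), Tmem70 lower (-0.40 and -0.57), Pdss2 higher (0.74 and 0.80), Coq9 lower (-0.58 and -0.64) and the mitochondrial RNA polymerase gene Polrmt lower (-0.64 and -0.74).

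Cell type markers differed between the library sets as well. Of all genes tested, 38.8% in AKR and 38.4% in B6N were called lower between the sets, and 39.8% and 40.0% higher. The summed level of 9 excitatory neuron markers was 5470 to 6012 CPM in the naive libraries and 2457 to 2883 in the OFL libraries, with 7 of 9 lower in AKR and 8 of 9 in B6N, while Rorb was higher (1.61 and 1.70). All 6 GABAergic markers were lower in both strains, and oligodendrocyte markers summed to 1444 to 2065 CPM in naive and 969 to 1494 in OFL libraries. Red blood cell markers went the other way, with 3 of 5 higher and none lower in each strain (medians 0.77 and 1.10). Between strains, 18.3% of all genes tested were called higher and 19.5% lower in naive AKR, and 7.5% and 8.86% after OFL. Of the excitatory markers, 3 were higher and 1 lower in naive AKR and 4 were higher after OFL. GABAergic markers had 2 higher and 1 lower in naive AKR and 4 higher after OFL. Red blood cell markers were lower in AKR for 4 of 5 in each set. The part of these shifts in the members' differences was not tested.

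Promoter letters were read from RefSeq (GRCm38.p6) for 74 of the 93 members, over 250 bases before and 50 after the annotated start, on both strands. The palindromic letters of nuclear respiratory factor 1 (NRF1), spelled out in capitals in the sequences printed here, occurred in 7 of them (9.46%) against 1.38% of 16521 promoters of coding genes. The YY1 letters AAGATGGCG occurred in 9.46% against 2.03%, and the core ETS letters CCGGAAG, bound by nuclear respiratory factor 2 among others, in 23.0% against 12.3%. GGGCGG (Sp1, 44.6% against 48.2%), CCAAT (44.6% against 38.8%), TATAAA (9.46% against 12.9%) and TCAAGGTCA (ERR, 2.7% against 0.333%) were also counted. A match is a run of letters, not a shown binding site. The 7 NRF1 matches are printed with 10 bases on each side because 3 of them belong to genes called higher in AKR in 1 library set. These were Uqcrc1 and Atp5g2 in naive libraries, where 18.3% of all genes tested were called higher. After OFL it was Cox6a1, against 7.5% of all genes. A link between the letters and the strain differences was not tested. Capitals mark the NRF1 letters, 5′ to 3′ on the strand of the gene:
Uqcrc1 (chr9:108936668-108936697, plus): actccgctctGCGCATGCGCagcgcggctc
Cox6a1 (chr5:115349101-115349130, minus): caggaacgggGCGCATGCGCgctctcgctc
Atp5g2 (chr15:102671070-102671099, minus): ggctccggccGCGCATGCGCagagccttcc
Atp5k (chr5:108434430-108434459, minus): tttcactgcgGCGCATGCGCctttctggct
Ndufa11 (chr17:56717692-56717721, plus): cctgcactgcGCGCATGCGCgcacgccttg
Ndufaf4 (chr4:24897960-24897989, plus): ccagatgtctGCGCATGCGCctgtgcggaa
Ndufaf5 (chr2:140170652-140170681, plus): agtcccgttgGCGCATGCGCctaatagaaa

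The other 4 genes with these letters were not called between strains. In the OFL minus naive comparison Uqcrc1, Cox6a1, Atp5g2, Atp5k (-0.34 and -0.35) and Ndufa11 (-0.89 and -0.92) were lower in both strains, and Ndufaf4 was higher (0.43 and 0.30), while Ndufaf5 passed in AKR (0.27) and stood at 0.14 in B6N, so genes holding the same letters lay on both sides of 0. The printed Atp5g2 letters lie 33 to 42 bases before the RefSeq start, which is 1305 bases inside the GENCODE gene.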

How the data were processed

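Gene-level raw counts from bulk RNA-seq of 14 libraries were analysed, from 2 tables that the authors deposited (naive and OFL). Per the labels' protocols, RNA was extracted with Trizol and libraries were made with a TruSeq kit. Per the submitters' processing notes, CASAVA, cutadapt 2.7, TopHat2 2.1.1, HTSeq and edgeR were used with GRCm38; the annotation release and strand setting are not given in the sources used here. The deposited CPM tables were not used. Genes were named with GENCODE M21 (53360 of 53465), and members are listed by symbol prefix.

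Counts were tested with edgeR 4.0.16 (R 4.3.3, limma 3.58.1): filterByExpr, TMM, two-sided quasi-likelihood F-tests, Benjamini-Hochberg adjustment over all genes tested, threshold 0.05. Strain differences were fitted within each table, and the interaction and OFL minus naive differences over all 14 libraries. Levels are TMM-scaled CPM of the joint fit. On simulated counts, between 80% (interaction) and 98% (OFL minus naive, B6N) of 1.5-fold changes were recovered. At least 99% of 2-fold changes were recovered, and 4.76% to 5.94% of calls were false. Only genes with higher counts held planted changes and most genes held none, unlike the real OFL minus naive comparison. No called strain difference of a member reached 1.5-fold, so the recovery rates do not cover those calls. No pair of libraries in a group agreed within sampling noise (chi-square per degree of freedom at least 1.73).

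Shared sequence was counted as 31-base stretches: 44 members share at least 5% of theirs with another gene and 30 share none. Alternatives were DESeq2 1.42.0, other factors, filters and gene sets, a replicate block, leaving out each library, and adding copies' counts. Named genes followed a rule: 24 core members, all called members in the strain comparisons, the 6 largest in each direction between sets, members missing the filter, and the called gene of each pathway list with the smallest p in each direction. Members with the NRF1 letters and Rorb were named after their values were seen. Some genes that this rule takes are not reported here. The members and lists were chosen with earlier results of these data known.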

Additional observations from a re-analysis of the deposited data

Results flagged for a closer look

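In groups of 4 libraries, 12 of 180 member levels had 1 library far from the other 3 (gap to the nearest over the range above 0.829), where chance gives about 1 in 20. In naive AKR replicate 2, Ndufs6 stood at 32.4 CPM against 26.7 to 27.6, Ndufa7 at 42.6 against 34.8 to 36.1 and Atp5j2 at 82.8 against 73.7 to 74.3. This library was also the highest of its group in the members' summed level, at 8272 CPM. In naive AKR replicate 4, Ndufb5 was at 46.3 CPM against 48.3 to 48.6 and Ndufaf1 at 13.6 against 12.5 to 12.6. In naive AKR replicate 3, Ndufb11 was at 50.6 CPM against 56.7 to 57.7. In naive B6N replicate 2, Ndufa2 was at 47.8 CPM against 43.8 to 44.1, Sdhc at 61.8 against 58.3 to 58.7 and Atp5g3 at 157 against 147 to 148. In naive B6N replicate 4, Ndufv3 was at 43.0 CPM against 38.2 to 38.8 and Ndufa1 at 25.2 against 23.2 to 23.5, and in naive B6N replicate 1, Cox6b1 was at 97.1 CPM against 101 to 102.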

How the results depend on the processing

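Of the 20 naive strain calls, 340 refits left 302 called in the same direction and 38 not called. Ndufb10, Ndufc2, Ndufb2, Ndufaf1, Ndufaf7, Cox5b, Sdhc, Uqcrc1, Atp5g2 and Atp5d were called in all 17 alternatives, while Atp5s was lost in 9, Ndufa1 in 7 and Ndufa13 in 6. Leaving out 1 library gave 12 to 23 naive calls, 1 to 5 after OFL, 0 to 1 in the interaction, 64 to 68 between sets in AKR and 63 to 69 in B6N. The naive split of 13 higher and 7 lower became 8 and 11 without AKR naive replicate 2, 8 and 7 without AKR naive replicate 4, 7 and 8 without B6N naive replicate 1, and 5 and 7 without B6N naive replicate 3. The OFL count fell to 2 without AKR OFL replicate 1 and to 1 (Ndufb10) without B6N OFL replicate 2, and was 3 with DESeq2; the cause was not tested. With copies' counts added, Cox7a2l turned to 0.019 after OFL, by the construction of that alternative. Between sets, 32 called members were followed in AKR and 33 in B6N. In AKR 724 of 736 refits kept the call and 12 lost it, and in B6N 727 of 758 kept it, 29 lost it and 2 turned, Atp5a1 to 0.024 and Atp5b to 0.033 with nuclear protein-coding genes only, where all values shift up by construction. Same-numbered libraries of different groups did not deviate together (correlations of deviations -0.04 to 0.04), and the labels do not say whether replicate numbers pair samples. With the replicate block the counts were 18, 5, 0, 66 and 66. Low counts limit the isoforms Cox8b, Cox7b2 and Cox6b2.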
